A study of Mus musculus and Rattus norvegicus with 11 samples.

Results

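The 10 cytokine genes described here are Il6, Il1b, Tnf, Il7, Il15, Il33, Il34, Csf1, Tnfsf13b and Lif, followed across every annotated cell type of peripheral nerve. They were chosen by name as signals that stromal and immune cells send to each other. That choice, and the choice of the gene lists used below, was made with earlier results of these data known. All 10 were found by symbol in the table of 31053 mouse genes and in that of 32883 rat genes. The libraries were droplet single-cell RNA libraries that tag the 3' end of transcripts and count each molecule by a unique molecular identifier (UMI). The study set out to chart healthy nerve in C57BL/6 mice and naive Lewis rats, and to examine chronic autoimmune neuritis in NOD mice, an inbred strain prone to autoimmunity.

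The groups were 3 libraries of NOD mice whose label reads ICAM-1-1/-NOD and whose series text reads ICAM-1-/-NOD, called here the libraries labelled Icam1 knockout, 3 libraries of NOD control mice, 3 libraries of C57BL/6 mice numbered 1, 3 and 4, and 2 libraries of naive Lewis rats. The mouse groups shared the tissue, sciatic nerve with brachial plexus from perfused animals, and the preparation, which was enzymatic digestion, myelin depletion and sorting of live cells. Rat sciatic nerve was digested with other enzymes and passed over a density gradient with no sorting. The labels gave no treatment, age, allele or disease score, and did not say whether a library held 1 animal or several or whether libraries of a group came from separate animals, so p-values measure the spread between libraries, which may be technical. NOD control libraries 2-1 and 2-2 share a number and were summed as NOD control 2, which left 3 samples labelled Icam1 knockout, 2 NOD control samples and 3 C57BL/6 samples.

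Mouse libraries held 400 to 3800 barcodes with a median of 591 to 1530 UMIs, and rat libraries 6500 and 6000 barcodes with medians of 2647 and 2670 UMIs. The authors had named 15672 of the 16050 mouse barcodes and 12360 of the 12500 rat barcodes, and 162 mouse and 59 rat barcode sequences occurred in more than 1 library. Icam1 itself, which encodes the adhesion molecule ICAM-1, stood at 246, 259 and 254 CPM (the gene's count scaled to a common UMI total) in the libraries labelled Icam1 knockout, against 94.5, 44.1 and 55.0 CPM in NOD control libraries. Tags at the 3' end do not read a deletion elsewhere in the gene, so these values do not check the genotype. Libraries were sequenced on either of a pair of Illumina instruments, the labels do not say which, and instrument and group cannot be told apart. The labels do not say whether the 3 libraries labelled Icam1 knockout came from 1 cell pool.

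Cytokines are short-range protein signals. IL-1 beta and TNF are made mainly by activated macrophages and monocytes and act through the transcription factor NF-kB in the cells that receive them. IL-33 is stored in the nucleus of fibroblasts and other structural cells and acts as an alarm signal through its receptor ST2, whereas IL-6 and LIF both signal through gp130, the product of Il6st. CSF1 and IL-34 share the receptor CSF1R and keep macrophages alive, BAFF (the product of Tnfsf13b) does so for B cells, and IL-7 and IL-15 sustain lymphocytes.

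In the mouse annotation (GENCODE M21 on mm10) the genes lie at chr5:30013114-30019981 (Il6, plus strand), chr2:129364570-129371139 (Il1b, minus), chr17:35199381-35202007 (Tnf, minus), chr3:7569994-7613760 (Il7, minus), chr8:82331632-82403222 (Il15, minus), chr19:29925114-29960718 (Il33, plus), chr8:110741829-110805924 (Il34, minus), chr3:107741048-107760469 (Csf1, minus), chr8:10006467-10039072 (Tnfsf13b, plus) and chr11:4257557-4272514 (Lif, plus). Genes on the opposite strand overlap Il1b (Il1bos), Il7 (Gm16685), Il34 (Gm15894 and Gm15895) and Tnfsf13b (Gm44789). How the authors' counting used strand is not given in the sources used here, and whether reads of these partners entered the counts of the 4 members was not tested. RefSeq's promoter table (GRCm38.p6) held entries for 7 of the 10 genes.

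The 250 bases before the start are shown for the 4 members on which the myeloid and stromal results turn, on the gene's own strand. Capitals mark matches, on either strand, to a kB motif, AP-1 (TGANTCA), C/EBP (TTGCNNAA) or a TATA box (TATAAA).
Il6, chr5:30012864-30013113, plus strand: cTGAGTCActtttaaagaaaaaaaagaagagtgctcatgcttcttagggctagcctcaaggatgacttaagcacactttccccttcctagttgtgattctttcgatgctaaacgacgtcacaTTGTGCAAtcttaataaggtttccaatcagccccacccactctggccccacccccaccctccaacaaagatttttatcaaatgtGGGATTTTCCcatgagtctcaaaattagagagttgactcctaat
Il1b, chr2:129371140-129371389, minus strand: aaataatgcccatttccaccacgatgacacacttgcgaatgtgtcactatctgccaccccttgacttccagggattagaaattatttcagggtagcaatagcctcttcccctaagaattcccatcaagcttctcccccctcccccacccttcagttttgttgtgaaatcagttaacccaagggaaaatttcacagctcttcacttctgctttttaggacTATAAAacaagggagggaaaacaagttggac
Tnf, chr17:35202008-35202257, minus strand: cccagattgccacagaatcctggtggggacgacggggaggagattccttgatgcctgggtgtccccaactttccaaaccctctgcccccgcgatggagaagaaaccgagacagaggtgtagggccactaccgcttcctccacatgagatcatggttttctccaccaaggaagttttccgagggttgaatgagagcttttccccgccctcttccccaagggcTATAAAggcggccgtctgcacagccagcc
Il33 (the first of 2 listed starts), chr19:29924863-29925112, plus strand: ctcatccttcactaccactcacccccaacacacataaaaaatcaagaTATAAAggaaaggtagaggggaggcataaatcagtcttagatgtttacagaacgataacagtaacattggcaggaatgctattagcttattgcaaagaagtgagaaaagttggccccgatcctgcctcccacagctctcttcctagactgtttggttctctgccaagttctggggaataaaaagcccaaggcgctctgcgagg
The Il6 window held a kB match 44 to 35 bases before the start, a C/EBP match 128 to 121 bases before it and an AP-1 match 249 to 243 bases before it, none overlapping another. The Il1b and Tnf windows held a TATA box 31 to 26 and 29 to 24 bases before the start and no match to the other 3 motifs. For Il33 the TATA match of the window shown lay 203 to 198 bases before the start, and the second start had TATA 29 to 24 and C/EBP 85 to 78 bases before it. Among 32851 windows of the same length, 7.25% held the kB motif, 6.75% AP-1, 9.56% C/EBP and 12.4% the TATA box. A match is a description of letters and shows no bound factor.

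Cell type names are the authors' abbreviations, and differences between cell types are descriptions, because the names rest on these same cells. Levels are CPM of the UMIs of that cell type, summed over the cells of a sample. The cells named nmSC went against a Schwann reading of that name: the fibroblast genes Dcn, Lum, Col1a1, Pdgfra and Gsn summed to 109784 CPM in the libraries labelled Icam1 knockout, 93525 CPM in NOD control and 113668 CPM in C57BL/6, while the nonmyelinating Schwann genes Ncam1, Ngfr, L1cam and Scn7a summed to 119, 273 and 209.9 CPM in the same groups. Ncam1 and L1cam were at 0 in the nmSC-named cells of the libraries labelled Icam1 knockout. The nmSC cells also carried the endoneurial fibroblast genes Sox9, Osr2, Wif1, Etv1 and Abca8a at 2163, 1952 and 1754 CPM, and the cells named fibro carried the epineurial list at 8410 CPM in NOD control and 7458 CPM in C57BL/6. They are therefore called nmSC-named cells, as a name only.

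**Figure D1:**
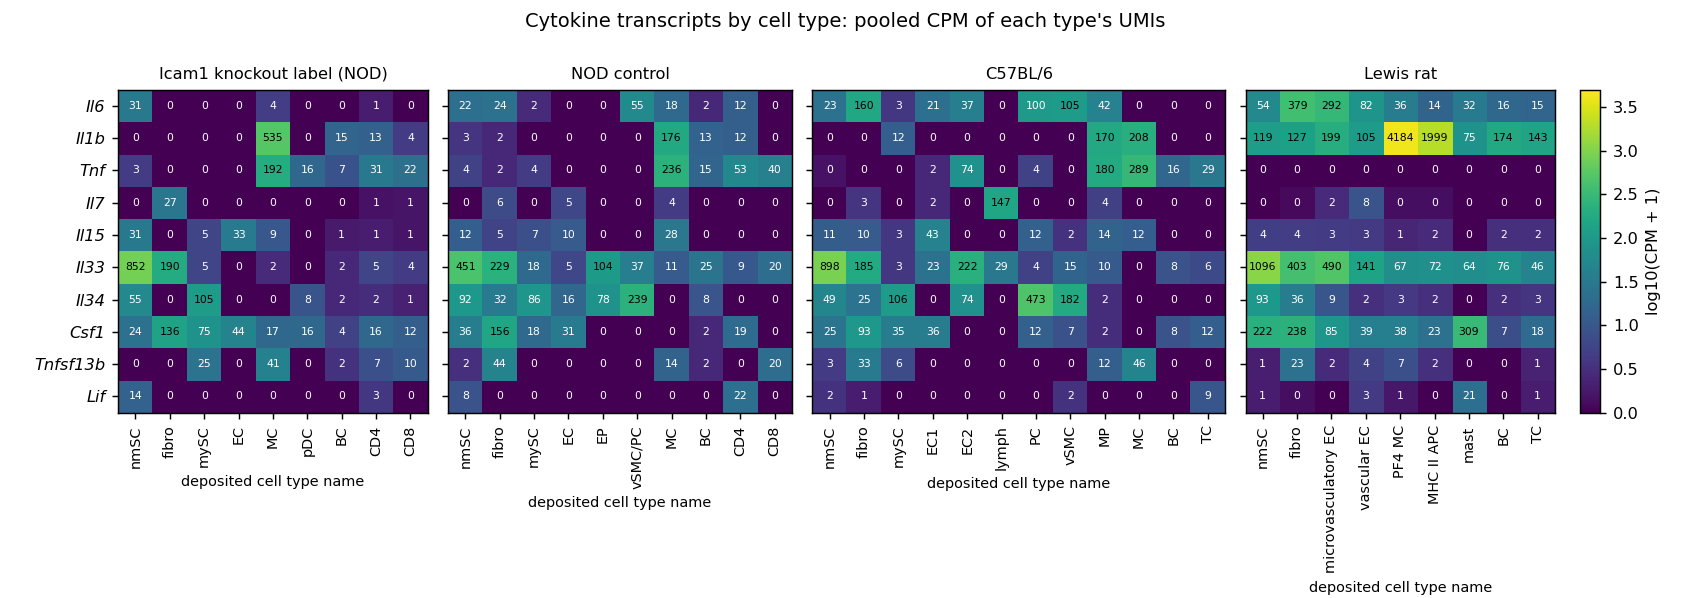
Pooled level of each cytokine gene (rows) in each deposited cell type with at least 20 cells (columns), 1 panel per group; colour is log10(CPM + 1) and the printed number is CPM of the type's UMIs. Il1b and Tnf are highest in MC and MP columns, Il33 in nmSC columns, and Tnf is 0 throughout rat; the fibro column of the libraries labelled Icam1 knockout rests on 20 cells.

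Transcripts of Il1b were counted mostly in cells with myeloid names. These held 85.5% of all Il1b UMIs in the libraries labelled Icam1 knockout, 73.5% in NOD control, 96.3% in C57BL/6 and 88.6% in rat. In cells named MC, Il1b stood at 579, 524 and 502 CPM in the libraries labelled Icam1 knockout, from 107, 91 and 92 UMIs, against 34.9 and 237 CPM in NOD control, from 3 and 47 UMIs. The groups did not overlap, and the NOD control samples lay far apart, with means of 535 ± 39.4 CPM (SD, n = 3) and 136 ± 143 CPM (SD, n = 2). C57BL/6 cells named MP, which carried the macrophage list at 4616 CPM, had 70.4, 226 and 65.6 CPM (mean 121 ± 91.2, SD, n = 3).

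Il1b rose in MC of the libraries labelled Icam1 knockout by 1.62 ± 0.39 on the log2 scale (SE; edgeR quasi-likelihood test, adjusted p = 0.00888 over 2981 genes). In that cell type 16.3% of genes tested passed, and 8.55% of genes tested passed as higher. Without NOD control 1 the difference was 1.05 (adjusted p = 0.00572), without NOD control 2 it was 3.88 (adjusted p = 1.04e-05), and DESeq2 gave 1.81 with adjusted p = 0.166. Within MC labelled Icam1 knockout, 67 of 211 cells (31.8%; exact Clopper-Pearson interval 25.5% to 38.5%, counting error only) had an Il1b UMI at a median of 2351 UMIs a cell, against 0.464% of CD8 cells of the same libraries at a median of 1138 UMIs. No Il1b UMI was counted in the 187 nmSC-named cells there, in which a floor of 3 UMIs would stand at 10.2 CPM.

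T cell genes moved with this contrast in MC: all 5 genes of the T list were detected in the libraries labelled Icam1 knockout and summed to 167 to 371 CPM, against 0 to 60.5 CPM in NOD control with Trac at 0. In MC cells without a UMI of any T or B marker, a set chosen after seeing these values, Il1b was higher by 1.83 on the log2 scale (edgeR adjusted p = 0.0335). In that set 241 of 1476 genes tested were called. It kept 33, 42 and 34 of 63, 70 and 78 cells in the libraries labelled Icam1 knockout. In NOD control it kept 70 and 123 of 71 and 149 cells, so the groups were filtered unequally. Immediate-early genes summed to 5458 to 8444 CPM in MC labelled Icam1 knockout and 11524 to 12508 CPM in NOD control. The monocyte and dendritic list spanned 13887 to 16963 CPM in the libraries labelled Icam1 knockout and 22777 to 28426 CPM in NOD control, and the macrophage list 3702 to 6513 CPM and 6215 to 6579 CPM. The neutrophil list summed to 1019 and 1146 CPM in these groups. The part of the immediate-early, monocyte and macrophage genes in the result was not tested.

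Tnf was counted in the same MC cells but its groups overlapped. It stood at 206, 155 and 213 CPM in the libraries labelled Icam1 knockout (mean 191 ± 31.3, SD, n = 3), against 372 and 176 CPM in NOD control (mean 274 ± 138, SD, n = 2). The difference was -0.51 on the log2 scale (edgeR, adjusted p = 0.333). In C57BL/6 MP cells Tnf stood at 317, 179 and 54.7 CPM, a wide spread with the lowest library holding 34 MP cells. Myeloid names held 49.5% of Tnf UMIs in the libraries labelled Icam1 knockout, 63.2% in NOD control and 87.1% in C57BL/6, and lymphoid names held 107 of 214, 28 of 106 and 12 of 132 Tnf UMIs in the same groups. Per UMI of the cell type the level was lower in T cells. CD4 cells had 24.4, 36.4 and 31.2 CPM in the libraries labelled Icam1 knockout, against 147 and 46.2 CPM in NOD control, the first of these from 3 UMIs in 39 cells (log2 difference -0.95, edgeR, adjusted p = 0.214).

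**Figure D2:**
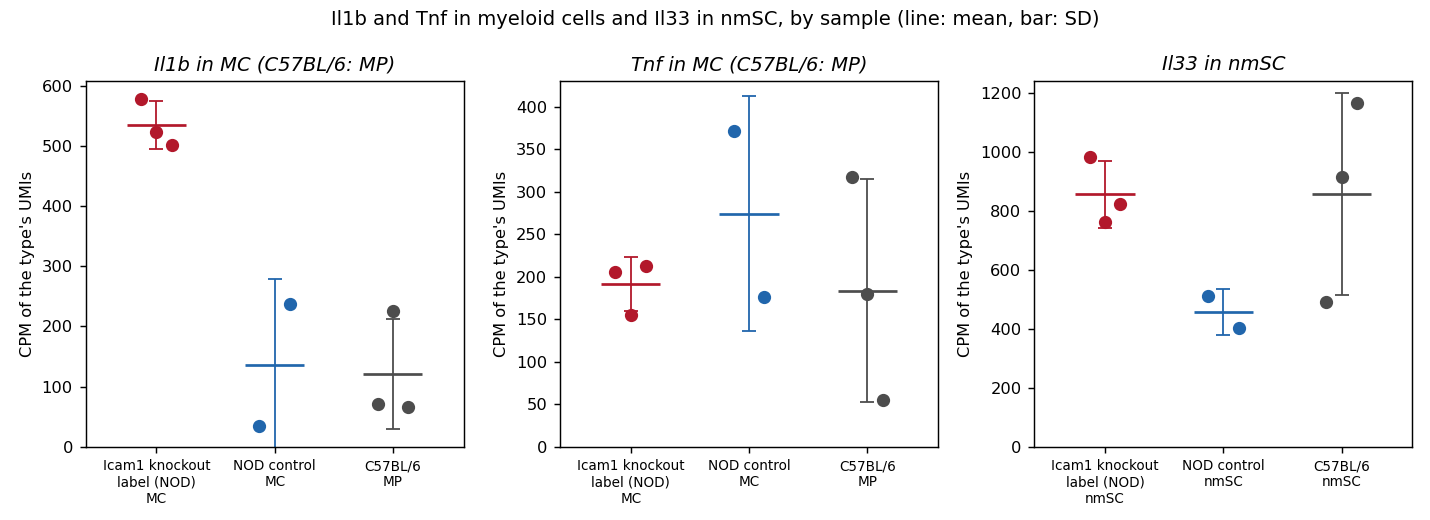
Il1b and Tnf in myeloid cells and Il33 in nmSC-named cells, as CPM of the type's UMIs on linear axes; points are samples, lines means and bars SD. The 3 samples labelled Icam1 knockout lie above both NOD control samples for Il1b and Il33, and these groups overlap for Tnf.

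Of the list of 51 receptors, antagonists, relatives and response genes of the members, 22 could be tested in MC, 8 were higher in the libraries labelled Icam1 knockout and 0 lower, where 16.3% of all MC genes passed and 8.55% passed as higher, with a median log2 difference of 0.40 against 0.01 over all genes tested. Il1r2, the decoy receptor of IL-1, stood at 243, 225 and 328 CPM in the libraries labelled Icam1 knockout, against 23.2 and 20.2 CPM in NOD control (log2 difference 3.50 ± 0.44, SE, edgeR adjusted p = 5.93e-05). Il1rn, the IL-1 receptor antagonist, stood at 114, 282 and 257 CPM in the libraries labelled Icam1 knockout, against 0 and 10.1 CPM in NOD control, or 117 against 2 UMIs. That is a ratio of 30.7, with a counting interval of 8.32 to 257 (adjusted p = 3.04e-04, edgeR). For Il18bp, which binds and blocks IL-18, 103, 127 and 158 CPM in the libraries labelled Icam1 knockout stood against 0 UMIs in NOD control MC, at least 12.3-fold higher against a floor of 3 UMIs over the group (adjusted p = 1.96e-04, edgeR). Ltb, a TNF relative made mainly by lymphocytes, had 59.5, 132 and 115 CPM in the libraries labelled Icam1 knockout, against 11.6 and 15.1 CPM in NOD control (2.69 on the log2 scale, adjusted p = 0.00785, edgeR). Il2rg, the shared chain of the IL-7 and IL-15 receptors, had 173, 167 and 137 CPM in the libraries labelled Icam1 knockout, against 69.7 and 50.4 CPM in NOD control (1.36, adjusted p = 0.0157, edgeR). The other called genes, given here after their values were seen, were Csf2rb, a chain of the GM-CSF receptor (2.08, edgeR adjusted p = 0.0217), Nfkbia (0.69, adjusted p = 0.0269) and Nlrp3, a sensor that drives processing of IL-1 beta and IL-18 (2.35, adjusted p = 0.0178). In MC cells without a T or B marker UMI, Il1r2, Il1rn and Il18bp were still called, whereas Ltb and Il2rg were not among the calls. Only 1476 genes could be tested there, so this does not separate a test that failed from too few UMIs for a test. Ltb and Il2rg were also not called without NOD control 2.

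The stromal alarm signal Il33 was concentrated in nmSC-named cells. It stood there at 982, 762 and 823 CPM in the libraries labelled Icam1 knockout (mean 856 ± 114, SD, n = 3, from 187 cells), against 512 and 402 CPM in NOD control (mean 457 ± 77.3, SD, n = 2, from 2203 cells), with no overlap between these groups. C57BL/6 nmSC-named cells had 491, 915 and 1166 CPM (mean 857 ± 341, SD, n = 3), a range that spans the libraries labelled Icam1 knockout. Fibro cells had 205 and 246 CPM in NOD control and 94.7, 192 and 260 CPM in C57BL/6. In NOD control 27.1% of nmSC-named cells had an Il33 UMI at a median of 718 UMIs a cell, against 1.94% of BC cells at a median of 659 UMIs.

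Il33 rose in nmSC-named cells of the libraries labelled Icam1 knockout by 0.89 ± 0.21 on the log2 scale (SE; edgeR, adjusted p = 0.0324 over 2101 genes), where 3.9% of genes passed and 2.38% passed as higher. The call did not survive the loss of any single library labelled Icam1 knockout. Those fits adjusted over more genes, 5965, 5723 and 5760 without libraries 1, 2 and 3. Without library 1 the difference was 0.71 (adjusted p = 0.405), without library 2 it was 0.94 (adjusted p = 0.227) and without library 3 it was 0.90 (adjusted p = 0.185). With the 3 libraries summed as 1 sample it was 0.87 (adjusted p = 0.776). The T list in nmSC-named cells spanned 273 to 432 CPM in the libraries labelled Icam1 knockout, with all 5 genes detected, and 3.76 to 72.7 CPM in NOD control. In nmSC-named cells without a T or B marker UMI, Il33 was higher by 0.94 (edgeR adjusted p = 0.0346). That set kept 23, 57 and 33 of 49, 84 and 54 cells in the libraries labelled Icam1 knockout. In NOD control it kept 978 and 1104 of 982 and 1221 cells. Immediate-early genes summed to 12955 to 13492 CPM in the libraries labelled Icam1 knockout and 6845 to 9744 CPM in NOD control, and the epineurial list to 351 to 385 and 659 to 762 CPM. Their part in the Il33 difference was not tested.

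Of the list of 51 genes, 6 could be tested in nmSC-named cells and 1 was called. This was Nfkbia, the NF-kB inhibitor that NF-kB itself induces, at 355, 315 and 526 CPM in the libraries labelled Icam1 knockout, against 158 and 157 CPM in NOD control (log2 difference 1.29 ± 0.25, SE, edgeR adjusted p = 0.0192). In nmSC-named cells without a T or B marker UMI, 36 of 1252 genes tested were called. Nfkbia was not among them, which does not separate a test that failed from too few UMIs for a test. In mySC, where 11.4% of 1711 genes passed, and in EC, where 2.6% of 538 genes passed, no cytokine member was abundant enough to be tested, and 0 of 4 and 0 of 1 listed genes were called by edgeR (3 and 0 at an unadjusted p under 0.05).

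CD4 cells had the largest number of listed genes called, 7 higher and 3 lower of 24 tested, in a cell type where 10.8% of 6866 genes passed. The median log2 difference was 0.48 for the list and 0.07 over all genes. Csf2, which encodes the myeloid growth factor GM-CSF, stood at 12.9, 13.6 and 0 CPM in the libraries labelled Icam1 knockout, against 393 and 52.8 CPM in NOD control (log2 difference -3.26 ± 0.53, SE, edgeR adjusted p = 8.16e-08). Zfp36, which promotes decay of cytokine messages including that of Tnf, was lower by 1.40 on the log2 scale (155, 155 and 152 CPM in the libraries labelled Icam1 knockout, against 933 and 314 CPM in NOD control, edgeR adjusted p = 1.40e-07). Tnfrsf1b, the second TNF receptor, had 104, 84.9 and 103 CPM in the libraries labelled Icam1 knockout, against 0 and 3.30 CPM in NOD control. These are 194 against 1 UMI, a ratio of 31.4 with a counting interval of 5.58 to 1248 (edgeR adjusted p = 8.60e-07). Il2rb, the IL-15 receptor beta chain, had 276, 232 and 267 CPM in the libraries labelled Icam1 knockout, against 0 and 66.0 CPM in NOD control (log2 difference 1.91, edgeR adjusted p = 1.73e-06). The groups did not overlap in these genes, but they were named by lowest adjusted p in the same samples, so this adds nothing to the test. Tnfaip3, a brake on NF-kB, had 716, 761 and 692 CPM in the libraries labelled Icam1 knockout, against 540 and 168 CPM in NOD control (1.65, edgeR adjusted p = 4.57e-05). The CD4 name did not cover like cells in these groups: the T list summed to 7936 to 8576 CPM in the libraries labelled Icam1 knockout, against 786 CPM in NOD control 1 (39 cells) and 5099 CPM in NOD control 2. The fibroblast list in CD4 cells spanned 459 to 653 CPM in the libraries labelled Icam1 knockout and 2162 to 3062 CPM in NOD control, and its part in these differences was not tested. All 5 genes named here were called without NOD control 1. Without NOD control 2, which moved the median of all genes to 1.48, Csf2, Zfp36 and Il2rb were called and Tnfrsf1b and Tnfaip3 were not.

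In all, 5 pairs of a cytokine member and a cell type were tested in this contrast, and 2 were higher and 0 lower, in cell types where 10.8% (CD4), 16.3% (MC) and 3.9% (nmSC) of all genes passed. Looser filters called further members lower at few UMIs. With no filter on low counts Lif was called in CD4, where 853 of 15014 genes were called. In all lymphoid names merged, where 2333 of 16842 genes were called with no filter, Il6 was called (-3.48, edgeR adjusted p = 0.0230). So were Lif (-2.52, adjusted p = 0.0331) and Il33 (-2.44, adjusted p = 1.59e-04). Il33 in the merged lymphoid names was -2.53 at a minimum count of 3 (edgeR adjusted p = 7.98e-05), where 2030 of 10622 genes were called. The fibroblast list in CD4 cells was higher in NOD control, as given above, and its part in these Il33 calls was not tested. The remaining pair, Csf1 in CD4 cells, stood at 15.8, 13.6 and 18.7 CPM in the libraries labelled Icam1 knockout, against 0 and 19.8 CPM in NOD control (log2 difference -0.36, edgeR adjusted p = 0.839).

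In C57BL/6 nerve Il6 was counted mostly in stromal and mural cells. Cells named fibro and nmSC held 84.6% of its UMIs and mural cells a further 10.0%. Fibro cells of libraries 1, 3 and 4 had 69.6, 182 and 0 CPM (mean 84.0 ± 92.0, SD, n = 3), from 25, 496 and 0 UMIs, so library 3 alone carried most of the signal. The library with 0 Il6 UMIs held 78 fibro cells, in which a floor of 3 UMIs would stand at 18.1 CPM. NOD control fibro cells had 11.4 and 32.8 CPM (mean 22.1 ± 15.2, SD, n = 2), and the ranges overlapped. In NOD control the 76 cells named vSMC/PC held 3 Il6 UMIs (55.2 CPM), and nmSC-named cells had 3.76 and 35.8 CPM, from 3 and 36 UMIs. In the libraries labelled Icam1 knockout only 20 fibro cells were named and they held 0 Il6 UMIs, while nmSC-named cells had 10.1, 8.29 and 94.4 CPM, the last from 7 UMIs.

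**Figure D3:**
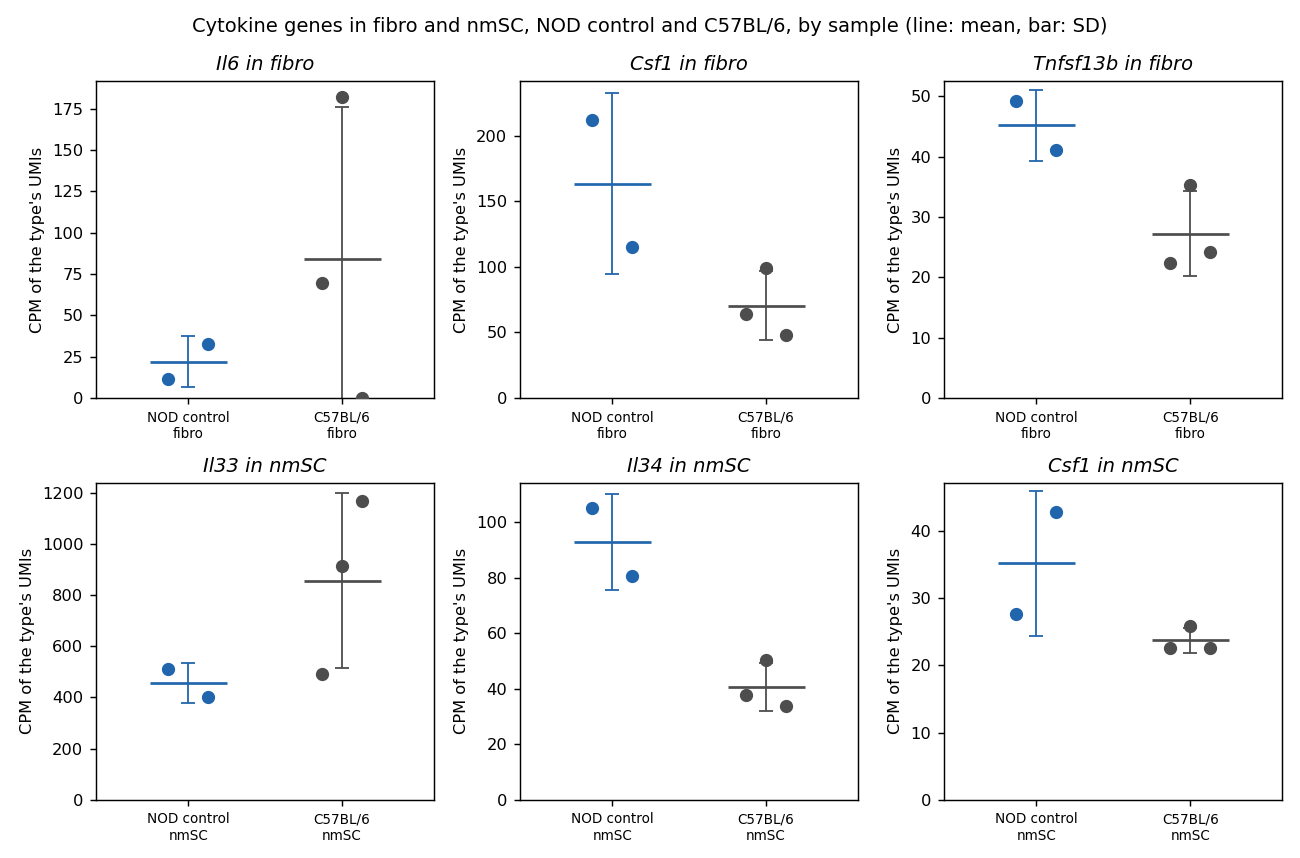
Levels of Il6, Csf1 and Tnfsf13b in fibro and of Il33, Il34 and Csf1 in nmSC-named cells, as CPM of the type's UMIs on linear axes; points are samples, lines means and bars SD. Il6 in fibro ranges from 0 to 182 CPM among C57BL/6 samples, with both NOD control samples inside that range.

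Between NOD control and C57BL/6, 11 member and cell type pairs were tested and 0 were called by edgeR, with 4 at an unadjusted p under 0.05 and 0 called by DESeq2. The background in this contrast was low, with 1.82% of genes called in fibro, 2.28% in nmSC, 1.3% in the myeloid set, 1.96% in EC and 1.29% in T cells. Il6 in fibro differed by -2.29 ± 0.80 on the log2 scale (SE, edgeR adjusted p = 0.241). That pair passed without C57BL/6 library 4 (-2.68, adjusted p = 0.0155) and without NOD control 2 (-3.36, adjusted p = 0.0276), and was -1.18 without C57BL/6 library 3 (adjusted p = 0.767). Immediate-early genes in fibro summed to 7422 and 2428 CPM in NOD control and 2654, 5706 and 2068 CPM in C57BL/6 libraries 1, 3 and 4, highest in C57BL/6 in the library with the highest Il6, and their part in the Il6 difference was not tested.

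Il33 in nmSC-named cells was the second pair with an unadjusted p under 0.05, at -1.03 ± 0.38 on the log2 scale (SE, edgeR adjusted p = 0.258), and its groups overlapped. Only the loss of C57BL/6 library 1 brought it past the threshold (-1.26, adjusted p = 0.0252). In fibro Il33 differed by 0.19 (adjusted p = 0.934). The myeloid pair gave -0.05 for Il1b (adjusted p = 0.996) and 0.21 for Tnf (adjusted p = 0.965), with standard errors of 0.71 and 0.67, so moderate differences were not detectable. The C57BL/6 cells named MC in that set carried the neutrophil list at 22468 CPM, against 6.00 CPM in C57BL/6 MP.

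Among types with at least 50 cells, the CSF1R ligands Csf1 and Il34 were highest in different types in NOD control and C57BL/6. In the libraries labelled Icam1 knockout both were highest in mySC (74.9 and 104.8 CPM pooled), where only 20 fibro and 14 vSMC/PC cells were named. Csf1 was highest in fibro cells, at 212 and 115 CPM in NOD control (mean 164 ± 68.8, SD, n = 2), against 64.1, 99.2 and 48.4 CPM in C57BL/6 (mean 70.5 ± 26.0, SD, n = 3). The NOD control samples both lay above all C57BL/6 samples, but the log2 difference of 0.89 ± 0.36 (SE) did not pass (edgeR adjusted p = 0.381). In the libraries labelled Icam1 knockout, mySC had 101, 68.5 and 51.9 CPM of Csf1, from 8, 3 and 4 UMIs, against 0 and 18.0 CPM in NOD control, too few UMIs for a test. EC1 of C57BL/6 had 28.1, 38.0 and 36.1 CPM, and nmSC-named cells had 27.6 and 42.8 CPM in NOD control and 22.6, 25.8 and 22.6 CPM in C57BL/6 (log2 difference 0.34, edgeR adjusted p = 0.874).

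Il34, which in brain microglia and skin macrophages supports survival, was highest in mural cells in C57BL/6 and NOD control. Cells named PC in C57BL/6, which carried the pericyte genes Rgs5, Kcnj8, Abcc9 and Pdgfrb at 7048 CPM, had 416 and 491 CPM of Il34 in libraries 1 and 3, and 38.4% of them had a UMI. Cells named vSMC had 119 and 195 CPM in the same libraries. The 69 vSMC/PC cells of NOD control 2 had 258 CPM. In mySC Il34 stood at 101, 68.5 and 130 CPM in the libraries labelled Icam1 knockout, 76.4 and 86.4 CPM in NOD control and 80.6 and 110 CPM in C57BL/6 libraries 1 and 3, and these groups overlapped. In NOD control nmSC-named cells (91.6 CPM pooled) stood above mySC (86.2 CPM pooled). In nmSC-named cells Il34 stood at 30.4, 58.0 and 80.9 CPM in the libraries labelled Icam1 knockout, 105 and 80.6 CPM in NOD control and 37.7, 50.6 and 34.0 CPM in C57BL/6. The difference between the last 2 groups, 0.86 ± 0.34 on the log2 scale (SE), did not pass (edgeR adjusted p = 0.308).

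Tnfsf13b was counted in fibro cells and, at lower UMI numbers, in myeloid cells. Fibro cells had 49.3 and 41.0 CPM in NOD control and 22.3, 35.3 and 24.2 CPM in C57BL/6, with no overlap but a log2 difference of 0.41 ± 0.41 (SE, edgeR adjusted p = 0.837). MC of the libraries labelled Icam1 knockout had 43.3, 23.0 and 54.6 CPM, from 22 UMIs, and MC of NOD control 0 and 20.2 CPM, from 4 UMIs. Lymphoid names held 55.7% of Tnfsf13b UMIs in the libraries labelled Icam1 knockout, where they also held 78.9% of all UMIs, and 5.3% in NOD control, where they held 21.3%.

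The lymphocyte survival factors Il7 and Il15 and the IL-6 relative Lif were near the limit of detection. Il15, with 156 UMIs in all named mouse cells, was highest in EC1 of C57BL/6, at 18.7, 44.4 and 108 CPM from 26 UMIs (pooled 42.8 CPM, exact Poisson interval 28.0 to 62.7). NOD control MC had 23.2 and 30.3 CPM of Il15 from 8 UMIs. In nmSC-named cells it stood at 18.8 and 5.97 CPM in NOD control and 22.6, 11.2 and 0 CPM in C57BL/6 (log2 difference -0.13, edgeR adjusted p = 0.977). Il7 had 26 UMIs in all named mouse cells, of which 5 fell in the 25 cells named lymph in C57BL/6 (147 CPM, exact Poisson interval 47.6 to 342). Lif had 43 UMIs, with 7 in CD4 cells of NOD control 2 and 0 in those of NOD control 1, and 13.6 CPM from 4 UMIs in nmSC-named cells labelled Icam1 knockout, against 7.77 CPM from 14 UMIs in NOD control. Lif and Il7 were too low to be tested under the filter on low counts, and Il15 was tested in nmSC-named cells between strains only. With no filter Lif in CD4 was lower in the libraries labelled Icam1 knockout (6 UMIs, 3.01 CPM) than in NOD control (7 UMIs, 21.6 CPM), by a log2 difference of -2.72 (edgeR adjusted p = 0.0405). That fit called 853 of 15014 genes.

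**Figure D4:**
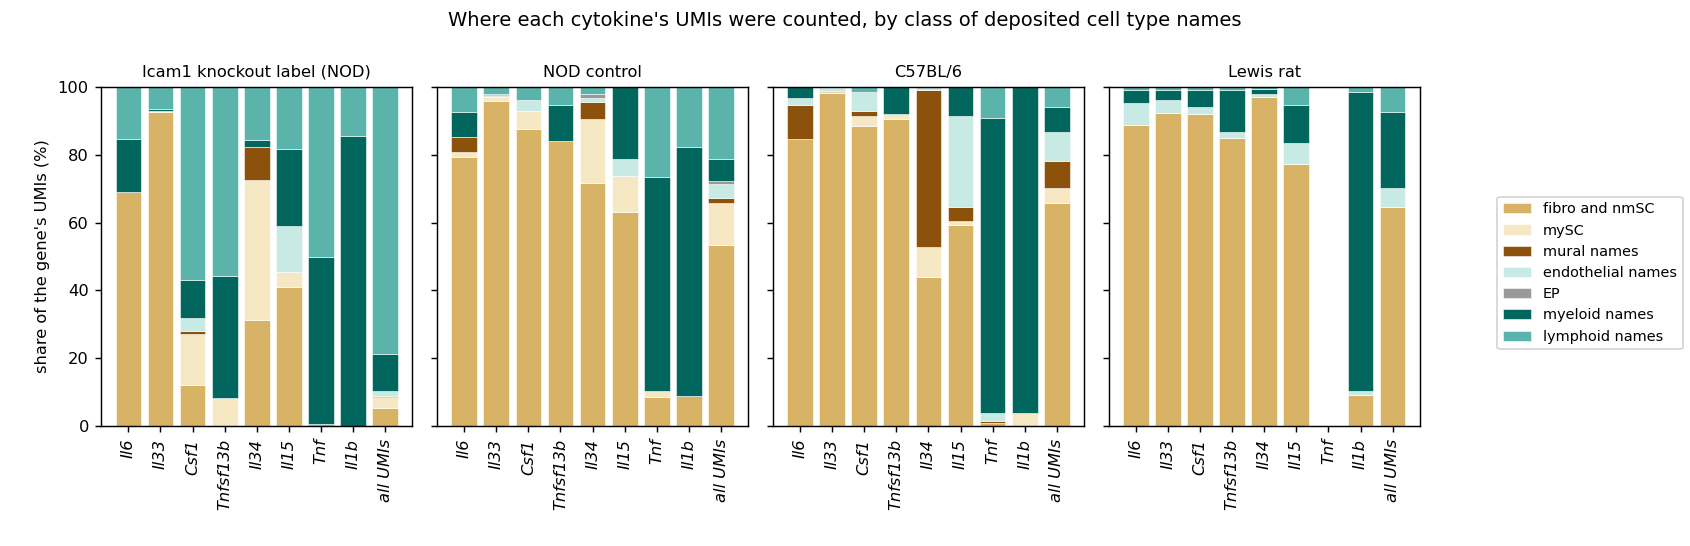
Share of the UMIs of each of 8 cytokine genes counted in each class of deposited cell type names (percent, stacked), with all UMIs as the last bar, 1 panel per group; the rat Tnf bar is empty. Cells named fibro and nmSC hold 92.8% of Il33 UMIs in the libraries labelled Icam1 knockout, where they hold 5.35% of all UMIs, and 98.5% in C57BL/6.

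Shares of UMIs move with the make-up of a library, which differed between groups. Cells named fibro and nmSC held 5.35% of all UMIs in the libraries labelled Icam1 knockout, 53.5% in NOD control and 65.9% in C57BL/6. Even so, they held 92.8%, 96.1% and 98.5% of Il33 UMIs. The Csf1 share moved more with the make-up, at 12.0%, 87.6% and 88.4% in these cells, in each group above their share of all UMIs. Lymphoid names held 57.0% of Csf1 UMIs in the libraries labelled Icam1 knockout, less than their share of all UMIs there. Over all named cells, Il33 stood at 44.9, 219 and 305 CPM in these 3 groups, the opposite order from its level within nmSC-named cells for the first 2. Il1b over all named cells stood at 54.9, 15.0 and 13.4 CPM.

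In Lewis rat nerve Il1b and Il33 were led by cells with names like those in mouse, and Il6 by fibro as in C57BL/6, at far deeper counts. In NOD control Il6 was instead highest in vSMC/PC among types with at least 50 cells (55.2 CPM pooled, against 23.8 CPM in fibro). PF4 MC cells had 4330 and 4030 CPM of Il1b and MHC II APC cells 2222 and 1773 CPM. Other types had lower levels, such as 134 and 274 CPM in microvasculatory EC, 106 and 132 CPM in nmSC-named cells, 103 and 180 CPM in TC, 145 and 198 CPM in BC and 110 and 146 CPM in fibro, and 24.9% of TC cells had a UMI at a median of 2034 UMIs, against 72.0% of PF4 MC cells at a median of 2185. The macrophage list stood at 13330 CPM in PF4 MC, 634 CPM in microvasculatory EC and 399.96 to 467 CPM in TC, BC and fibro. The part of free RNA in the Il1b counts of those types was not tested.

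Il6 in rat was highest in fibro cells, with 384 and 374 CPM (mean 379 ± 7.21, SD, n = 2) and a UMI in 36.7% of cells at a median of 3578 UMIs, against 2.26% of TC cells at 2034. Cells named microvasculatory EC had 277 and 309 CPM, vascular EC 77.3 and 87.4 CPM and nmSC-named cells 51.7 and 56.6 CPM. The order of these types was the same in both libraries. The microvasculatory EC cells carried the endothelial list at 522 CPM, less than the macrophage list in the same cells, so their name is used as a name only.

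Il33 in rat was again led by nmSC-named cells, with 1193 and 988 CPM and a UMI in 80.4% of cells, followed by microvasculatory EC with 529 and 444 CPM and fibro with 424 and 380 CPM. These types kept that order in both libraries. Csf1 was even between fibro, with 236 and 240 CPM, and nmSC-named cells, with 224 and 219 CPM, and the 37 cells named mast had 313 and 305 CPM. Il34 stood at 93.3 and 92.6 CPM in nmSC-named cells and at 37.8 and 34.4 CPM in fibro. Tnfsf13b was highest in fibro, at 23.0 and 22.2 CPM, followed by PF4 MC at 6.07 and 8.21 CPM. Rat Il7, Il15 and Lif had 15, 115 and 26 UMIs in all named cells.

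Tnf had 0 UMIs among 37032870 in rat. Its neighbour and relative Ltb also had 0 UMIs in rat, while Ltb had 6161 UMIs in the mouse cells, and Lta had 6 UMIs in rat. Ltb is a standard transcript of T and B cells, so the 0 for rat Tnf is not read as lack of expression. Species were not tested against each other, because the tissue, enzymes and sorting differed.

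**Figure D5:**
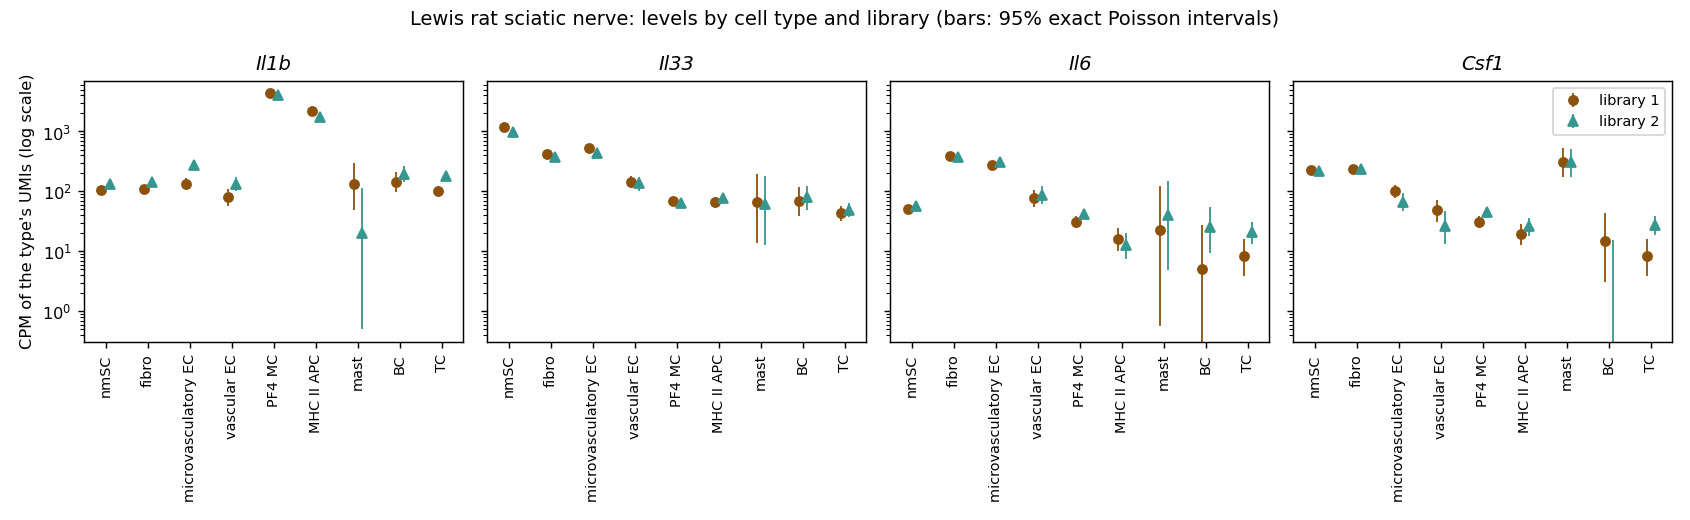
Levels of Il1b, Il33, Il6 and Csf1 by rat cell type and library, as CPM of the type's UMIs on a log axis with 95% exact Poisson intervals (counting error only). The libraries lie close together for nmSC and fibro, and Il1b in PF4 MC is 4330 and 4030 CPM; Csf1 is 0 in BC of library 2, so only its interval is drawn.

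Csf1r, the receptor of Csf1 and Il34, was highest in myeloid names, with 338 CPM in MC labelled Icam1 knockout, 520 CPM in MC of NOD control, 220 CPM in MP of C57BL/6 and 512 CPM in rat PF4 MC. Il7r, the IL-7 receptor, stood at 373 CPM in CD4 cells labelled Icam1 knockout, 232 CPM in CD4 cells of NOD control and 223 CPM in TC of C57BL/6. The TNF receptor genes were counted in MC as well as in other cells, with Tnfrsf1a at 92.3 CPM in MC labelled Icam1 knockout and 80.9 CPM in MC of NOD control, and Tnfrsf1b at 73.8 and 80.9 CPM. In fibro cells Il6ra, the IL-6 receptor, stood at 50.8 CPM in NOD control and 24.6 CPM in C57BL/6, and Il6st at 192 and 128 CPM. Il2rb stood at 541 CPM in CD8 cells labelled Icam1 knockout and 277 CPM in CD8 cells of NOD control. Tnfrsf13c, the BAFF receptor, stood at 341 and 287 CPM in BC of the same groups. Il1rl1, which encodes the IL-33 receptor ST2, was highest in CD4 cells in NOD control (52.6 CPM, from 17 UMIs) and in MP in C57BL/6 (36.0 CPM, from 18 UMIs). Il1r1, the signalling IL-1 receptor, was highest in fibro in NOD control (49.2 CPM) and C57BL/6 (43.1 CPM). Among types with at least 20 cells Lifr, the LIF receptor, was highest in endothelial names, at 222, 172 and 142 CPM in EC labelled Icam1 knockout, EC of NOD control and EC1 of C57BL/6.

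Of the 51 listed genes, 65 gene and cell type pairs were tested between NOD control and C57BL/6, with 0 higher and 2 lower, in cell types where 1.29% to 2.28% of all genes passed, so the count lies near that background. Both were Il11ra1, the IL-11 receptor alpha chain of the gp130 family. In nmSC-named cells it stood at 40.1 and 30.9 CPM in NOD control, against 309, 329 and 328 CPM in C57BL/6 (log2 difference -3.32 ± 0.34, SE, edgeR adjusted p = 6.68e-06), and in fibro at 64.4 and 129 CPM in NOD control, against 479, 883 and 514 CPM in C57BL/6 (-2.86 ± 0.42, SE, adjusted p = 0.00109). Near-identical copies of Il11ra1 lie in the mouse genome, so its counts are uncertain.

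The genes most like each member over 25 points, each a cell type with at least 50 cells within a mouse group, were named by Pearson's r of log2(CPM + 10) among 8559 genes. Il1b ran closest to Clec4e (r = 0.971), Ms4a7 (r = 0.959) and C1qc (r = 0.952), and Tnf to Cd68 (r = 0.923), Ccr2 (r = 0.909) and Ms4a6c (r = 0.909), all genes of myeloid cells. Il33 ran closest to the fibroblast genes Dcn (r = 0.963) and Pdgfra (r = 0.955) and to Adamtsl3 (r = 0.958). Il34 was most like Ndrg2 (r = 0.954), Csf1 like Rpn2 (r = 0.841), Tnfsf13b like Il18 (r = 0.821) and Il6 like Arhgap6 (r = 0.849). Points of a group share libraries and depth, and no p is given.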

How the data were processed

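Droplet single-cell libraries (10x 3' chemistry version 2) were analysed from 9 mouse and 2 rat samples. Raw UMI counts of each barcode, with a name for most, are what the authors deposited; Cell Ranger 3.0.2 and the builds mm10 and Rnor_6.0 are named in the submitters' processing notes. Correction for doublets or free RNA is not given in the sources used here, and none was made. Barcodes without a name were left out; 0 columns of other samples were set aside. From the counts, UMIs were summed per sample and cell type. Levels are CPM of those sums with 95% exact Poisson intervals, which cover counting error only. Cell types with at least 20 cells in every sample were tested with edgeR 4.0.16 (quasi-likelihood, TMM, filterByExpr minimum count 10, R 4.3.3), Benjamini-Hochberg over all genes of the cell type, threshold 0.05. EC of NOD control was set against EC1 of C57BL/6, MC and pDC against MP and MC (myeloid), and CD4 and CD8 against TC. The test was also run on counts simulated for some of these sets with the same dispersion for every gene. The spread between the real samples can be wider, so that run does not show the error rate of the test here. DESeq2 1.42.0, other filters, scalings, a replicate block and left-out libraries were alternatives. Named genes were all 10 members, at most 5 called genes of the list of 51 per contrast and cell type by lowest adjusted p, and the 3 most alike genes, of which some are given. Members and gene lists were chosen with earlier results of these data known.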

Additional observations from a re-analysis of the deposited data

How the results depend on the processing

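Of the 5 cytokine and cell type pairs tested for the Icam1 knockout label against NOD control, 2 were called, beside 3.9% to 16.3% of all genes in those cell types. That count was 1 with DESeq2, 1 with the libraries labelled Icam1 knockout summed, 1 at a minimum count of 3, and 1 to 2 with a library left out. With no filter it was 2 of 39 pairs, Il1b in MC and, lower, Lif in CD4 (-2.72, edgeR adjusted p = 0.0405). Those fits called 554 of 12687 genes in MC and 853 of 15014 in CD4. For Il33 in nmSC-named cells the log2 difference was 0.84 at a minimum count of 3 (adjusted p = 0.0962) and 0.68 with no filter (adjusted p = 0.209). Calls among the 51 listed genes numbered 19 of 57 pairs tested, beside 2.6% to 16.3% of all genes per cell type, against 10 with DESeq2, 9 with those libraries summed and 14 to 23 with a library left out. Over all genes, calls in CD4 numbered 744, against 180 with DESeq2 and 78 with those libraries summed, calls in MC 487, against 265 and 244, and calls in nmSC 82, against 9 to 348 with a library left out. With a library left out Csf1 in CD4 ranged from -0.48 to 6.04, the highest without NOD control 2 (adjusted p = 0.622). The causes were not tested.

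Deviations of same-numbered samples from their group means correlated at -0.0372 to 0.118. With 2 NOD control samples these deviations mirror each other, so the correlations cannot decide whether the numbers pair the samples. With the replicate block, 10 listed genes and 95 genes in CD4 were called. No paired analysis was possible for NOD control against C57BL/6 because these groups share only number 1.

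Between strains, 0 member pairs were called, against 1 with no filter and 0 to 1 with a library left out; Il6 in fibro was -2.38 with no filter (adjusted p = 2.20e-05). Signs turned for uncalled pairs: Il33 in fibro (-0.016 without C57BL/6 1, in a range of -0.016 to 0.41 with a library left out), Il1b in myeloid cells (0.12 with control libraries 2-1 and 2-2 apart, 0.59 without NOD control 1, in a range of -2.20 to 0.59), Tnf in myeloid cells (-0.22 without C57BL/6 4, -0.39 without NOD control 1, in a range of -0.39 to 0.66), Il6 in nmSC (0.046 with DESeq2, 0.57 without NOD control 1, in a range of -2.48 to 0.57) and Il15 in nmSC (0.05 without C57BL/6 1, 0.59 without NOD control 2, in a range of -1.14 to 0.59). Among levels, Il34 in C57BL/6 PC was 395 CPM in cells with at least 500 UMIs, a move of more than 1 SD. The other 105 recomputed levels stayed within 1 SD, or within the counting interval where only 1 sample held at least 20 cells. Most of these left a sample out, which cannot move a mean of so few samples by 1 SD, so they do not show that the levels are stable.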

Other observations

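Barcodes without a cell type name numbered 123 in the libraries labelled Icam1 knockout, 53 in NOD control, 202 in C57BL/6 and 140 in rat. In C57BL/6 they held 29 Il33 UMIs (125 CPM), 14 Csf1 UMIs (60.5 CPM) and 12 Il6 UMIs (51.9 CPM). In rat they held 259 Il1b UMIs (689 CPM).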
